A study of Rattus norvegicus with 10 samples.

Results

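The genes described are 36 members of the interferon response and of class I antigen processing, out of 23422 genes in the deposited table, chosen as a named list and found by gene symbol. They fall into 15 antiviral effectors, 5 nucleic acid sensors, 5 transcription factors, 4 interferon-induced GTPases, 3 chemokines and 4 antigen processing genes. RNA was sequenced from EDTA-released epithelial cells of the distal colon in male Wistar Munich rats, 5 per diet. Control rats 1, 2, 5, 6 and 9 ate standard rodent chow. Rats 3, 4, 7, 8 and 11 ate the same chow with 1% w/w sodium cholate, a bile acid salt, for 10 days. The study began with 12 rats, of which 6 were switched to cholate, and the 5 rats of each diet with the most concentrated RNA were sequenced.

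Interferons are secreted antiviral proteins that cells sense through surface receptors. Types I and III act through kinases of the JAK family on a complex that holds STAT2 and IRF9 and binds interferon-stimulated response elements. Interferon gamma acts through gamma-activated sites and switches on IRF1. The genes so induced include antiviral effectors, sensors of viral nucleic acids, and the machinery that cuts proteins into peptides and loads them on MHC class I molecules. In gut epithelium many of these genes are also expressed at a basal level without infection.

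Levels are CPM, counts scaled to the library size with TMM factors, and values in every library are given in the order control rats 1, 2, 5, 6 and 9, then cholate rats 3, 4, 7, 8 and 11. A gene is said to have fallen or risen when it passed both limits of the edgeR quasi-likelihood test, an adjusted p below 0.01 and more than a 2-fold change. The log2 change sets cholate over control and comes with a standard error (SE), which is approximate. In a bulk sample, fewer cells of a type and less RNA per cell cannot be told apart.

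The libraries held 14337356 to 45285762 counts, so that 3 counts, the limit that a count of 0 allows, came to 0.0616 to 0.228 CPM. The first principal component over all genes held 46.8% of the variance and did not separate the diets. Control rats 1, 2 and 6 and cholate rats 3, 4 and 7 lay on its negative side (set A), and control rats 5 and 9 and cholate rats 8 and 11 on its positive side (set B), with control rat 5 the nearest to 0 of all 10. Short genes, with up to 875 coding bases, were higher in set B by a median of 0.35 on the log2 scale, and genes of 2250 or more coding bases differed by -0.35. These sets were defined from the data, and differences within each set are given for some of the genes. Among 11 epithelial markers the summed level was 15890 to 29054 CPM on the control diet and 23618 to 38010 CPM on cholate, and Krt20 and Car1, markers of mature surface colonocytes, rose.

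Promoter sequence was at hand for 27 of the 36 genes, matched by gene ID to RefSeq promoters of the GRCr8 build, each with 250 bases before the start site and 50 bases from it on. The core of the interferon-stimulated response element was searched as GAAANNGAAA on both strands and the core of the gamma-activated site as TTCNNNGAA, which reads alike on both strands. The response element core was in 17 of the 27 promoters (63.0%) and in 3.77% of all 27457 promoters. The gamma-activated core was in 10 of 27 (37.0%) and in 8.68% of all. Such a match is a description of the letters and no evidence of binding. The stretches below belong to genes that were lower or higher on cholate in the results that follow, or that lie beside them in the MHC, and are written 5′ to 3′ on the strand of the gene, with the matched bases in capitals.
Oas1a, gamma-activated core (chr12:41330247-41330295, plus strand): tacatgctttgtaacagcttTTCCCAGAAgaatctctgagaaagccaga
Oas1a, response element cores (chr12:41330405-41330460, plus strand): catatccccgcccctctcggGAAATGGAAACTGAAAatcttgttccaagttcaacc
Ifi44, response element core (chr2:243303841-243303886, minus strand): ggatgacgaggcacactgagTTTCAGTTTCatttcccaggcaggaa
Parp14, both cores (chr11:78408027-78408087, plus strand): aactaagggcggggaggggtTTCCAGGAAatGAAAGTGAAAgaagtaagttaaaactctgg
Rsad2, response element core (chr6:48788238-48788287, minus strand): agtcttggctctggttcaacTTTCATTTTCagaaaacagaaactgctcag
Irf1, gamma-activated core (chr10:38417773-38417821, plus strand): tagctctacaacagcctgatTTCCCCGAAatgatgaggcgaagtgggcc
Psmb8, gamma-activated core (chr20:4657248-4657281, minus strand): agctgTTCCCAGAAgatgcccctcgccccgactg
Psmb8, response element core (chr20:4657026-4657055, minus strand): cctcctcttggtgctgtggcTTTCGCTTTC
Tap1, response element core (chr20:4668635-4668684, minus strand): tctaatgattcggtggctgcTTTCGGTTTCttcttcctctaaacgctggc

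The promoter of Oas1a carried 2 response element cores that share their middle GAAA, with their first bases 41 and 35 bases upstream of the start site, and a gamma-activated core 199 bases upstream. In Parp14 the gamma-activated core, 87 bases upstream, is followed after a gap of a few bases by the response element core, 76 bases upstream. Ifi44 has its shown core 26 bases upstream and another 26 bases downstream of the start site, which is not printed. The response element core of Psmb8 begins 4 bases upstream of the start site and runs across it. All 5 promoters at hand of genes lower at an adjusted p under 0.05 held a match of either kind, as did 13 of the 18 promoters of tested genes that were not. The 5 without a match were those of Mx1, Oasl, Stat2, Psmb9 and Trim25. The response element core shown for Tap1 lies between the start sites of Tap1 and Psmb9, outside the bases searched for Psmb9.

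Of the 36 genes, 30 passed the filter on low counts and were tested. Rsad2 was among those left out, and without the filter its change was 4.74 (edgeR adjusted p = 0.0118). On cholate 4 of the 30 fell, namely Oas1a, Ifi44, Zbp1 and Psmb8, and 0 rose. At an unadjusted p under 0.05 the same edgeR test had 15 of the 30 lower and 1, Gbp2, higher, against 14.4% of all genes lower and 14.5% higher, and DESeq2, the edgeR exact test and limma-voom also called 0 higher. Over all 12385 genes tested, 2.12% fell and 1.1% rose. At an adjusted p under 0.05 without a fold limit, 8 of the 30 were lower and 0 higher, against 7.28% of all genes lower and 6.48% higher. In 7 of the 30 every cholate library lay below every control library and in 0 every one lay above, against 6.8% and 6.3% of all genes. The fold change was negative in 24 genes and positive in 6, with a median of -0.68 on the log2 scale, while the median of all genes tested was -0.01 and 51.1% of them were negative.

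**Figure D1:**
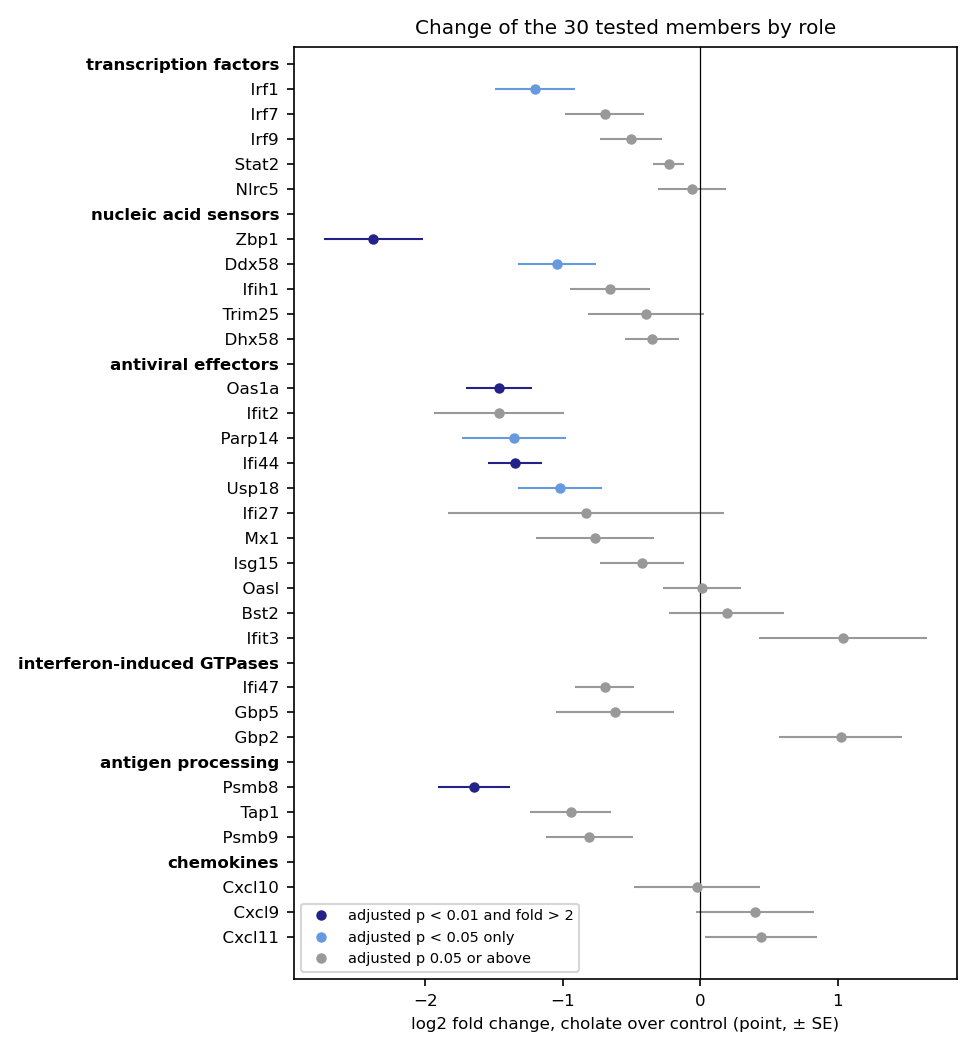
Log2 fold change of cholate over control (x axis, point with ± SE) for the 30 tested genes (y axis), grouped by role. Dark blue marks the 4 genes that fell, light blue the other 4 below 0.05. Most points lie left of 0, and the 3 chemokines lie around it.

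Markers of other cell types were read beside these counts. The summed level of 16 T and NK cell markers was 24.8 to 42.3 CPM in controls and 28.5 to 35.4 CPM on cholate, 6 of the 16 were under 1 CPM in every library, and none fell or rose. Of the 9 with enough counts to be tested, 6 had a negative and 3 a positive log2 change, from -1.92 to 1.26, with a median of -0.28. The lowest was Gzma, a granule protease, at -1.92 (SE 0.57, edgeR adjusted p = 0.0456). The sum of 16 macrophage and dendritic cell markers was 219 to 290.5 CPM in controls and 228 to 293 CPM on cholate, and Flt3 rose. Sums of 7 B and plasma cell markers were 1.34 to 5.50 and 1.63 to 5.75 CPM, and those of 8 granulocyte and mast cell markers 10.7 to 27.8 and 16.5 to 34.9 CPM, with Mpo and Epx at 0 throughout. The sums of 6 smooth muscle markers, 42.4 to 61.9 and 8.17 to 13.5 CPM, and of 4 endothelial markers, 3.84 to 7.86 and 0.759 to 3.45 CPM, did not overlap, with Des and Vwf lower by both limits. Of the smooth muscle markers 4, and of the endothelial markers 2, were under 1 CPM in every library. Only 2 markers of each list had enough counts to be tested. Sums of 7 fibroblast markers were 1.81 to 3.79 and 0.759 to 3.29 CPM, with Col1a2 at 0 and 5 of the 7 under 1 CPM in every library. The 1 fibroblast marker with enough counts to be tested changed by -2.56, without overlap between the diets. It was lower at an edgeR adjusted p under 0.05 and did not pass both limits. The part of these cell types in the changes of the 36 genes was not tested.

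The inputs of the response were looked at first. Of 11 interferon genes, 8 were listed at 0 in every library, among them Ifnb1 and the 5 alpha interferons looked for. Ifne, Ifnk and Ifng each had counts in 1 library only, at no more than 0.218 CPM. None had enough counts to be tested, and at this depth a difference between the diets was not detectable.

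Of 9 receptor chains and JAK kinases, 0 fell or rose in the edgeR test or in the other tools run. At an unadjusted p under 0.05, which 14.4% of all genes passed as lower and 14.5% as higher, 3 were lower and 0 higher, and 1 passed an adjusted p of 0.05. Ifnlr1, the chain specific to type III interferon, to which gut epithelium is known to respond, was at 19.4, 17.4, 16.7, 15.2 and 10.2 CPM in controls and 9.86, 11.1, 9.50, 5.88 and 6.30 CPM on cholate. Control rat 9 lay within the cholate range, and the change was -0.88 (SE 0.23, edgeR adjusted p = 0.0304). Both chains of the type I receptor were below 0 without passing, Ifnar1 at -0.43 (SE 0.19, edgeR adjusted p = 0.163) and Ifnar2 at -0.35 (SE 0.14, edgeR adjusted p = 0.128). The interferon gamma receptor chains Ifngr1 and Ifngr2 had log2 changes of -0.13 (SE 0.12) and 0.35 (SE 0.18), and Il10rb, the chain that pairs with Ifnlr1, of -0.10 (SE 0.14). None of these 3 passed.

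Among the transcription factors, Irf1, which interferon gamma induces and which drives class I processing genes, stood at 97.1, 109.9, 105, 112 and 139 CPM in controls and 19.4, 40.9, 51.9, 75.2 and 57.1 CPM on cholate. Every cholate library was below every control library, with cholate rat 3 the lowest. The mean went from 113 ± 15.7 to 48.9 ± 20.6 CPM (SD, n = 5 each), a change of -1.20 (SE 0.29) at an edgeR adjusted p of 0.0206, short of the 0.01 threshold. Without cholate rat 3 or without cholate rat 8 it passed both limits, and without cholate rat 4 its adjusted p was 0.053.

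The other transcription factors did not pass. By both limits 0 of the 5 fell in the edgeR test, where 2.12% of all genes fell, and 1, Irf1, in DESeq2. Stat2, the activating subunit of the complex that binds response elements, was at 38.5, 39.2, 42.3, 42.7 and 37.4 CPM in controls and 34.7, 29.8, 34.4, 34.4 and 37.3 CPM on cholate. The diets did not overlap, but the gap between the lowest control and the highest cholate library was small, and the change was -0.23 (SE 0.11, edgeR adjusted p = 0.199). Irf9, which gives that complex its DNA specificity, had a log2 change of -0.50 (SE 0.23) and Irf7, the factor that amplifies type I interferon, of -0.70 (SE 0.29), with overlap between the diets in both. Over all libraries Irf9 was at 13.9 to 31.5 CPM and Irf7 at 8.97 to 29.0 CPM. Nlrc5, the transactivator of MHC class I genes, had a log2 change of -0.06 (SE 0.25, edgeR adjusted p = 0.906) at 3.19 to 8.20 CPM.

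Of 14 further adaptors, factors and inhibitors of the pathway, 0 fell or rose in the edgeR test or in the other tools run, and 4 were lower and 0 higher at an unadjusted p under 0.05 (14.4% and 14.5% of all genes). Irf8, an interferon gamma-induced factor best known from myeloid cells, was the 1 gene below 0.05, at 66.4, 67.6, 69.0, 76.8 and 70.5 CPM in controls and 52.1, 44.3, 41.8, 44.4 and 55.3 CPM on cholate, without overlap. Its change was -0.56 (SE 0.12, edgeR adjusted p = 0.0113). The median change of the 14 was -0.23.

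All 5 nucleic acid sensors had a negative fold change, 1 fell and 2 were below 0.05. Of all genes tested 51.1% were negative, 2.12% fell and 7.28% were lower at an adjusted p under 0.05. Zbp1, a sensor of left-handed nucleic acids that can trigger necroptosis, was at 1.72, 1.65, 1.49, 2.16 and 3.43 CPM in controls and 0.295, 0.493, 0.214, 0.501 and 0.531 CPM on cholate. No cholate library came near the lowest control. Zbp1 had 274 counts over the 5 controls and 55 over the 5 cholate libraries. Its mean fell from 2.09 ± 0.789 to 0.407 ± 0.143 CPM (SD, n = 5 each), a change of -2.38 (SE 0.36, edgeR adjusted p = 0.00281), the largest decrease among the 30 tested genes. The gene lies at chr3:171276062-171292062 on the minus strand of rn6. The call was kept when any 1 of the 10 rats was left out.

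Ddx58, the RNA helicase also called RIG-I, was at 3.61, 2.91, 2.95, 3.86 and 1.69 CPM in controls and 1.51, 1.79, 1.61, 0.876 and 1.44 CPM on cholate. Control rat 9 was below cholate rat 4, so the diets overlapped by that library, and the change was -1.04 (SE 0.28, edgeR adjusted p = 0.0326). The related helicases Ifih1 and Dhx58 had log2 changes of -0.66 (SE 0.29) and -0.35 (SE 0.20), and Trim25, the ubiquitin ligase that activates RIG-I, of -0.40 (SE 0.42). None of these 3 passed, and they were at 13.0 to 46.8 CPM, 8.03 to 17.3 CPM and 23.2 to 96.8 CPM. Ddx58, Ifih1 and Trim25 were each lower in control rat 9 than in the other controls, and lower in cholate rats 8 and 11 than in the other cholate rats. These 3 libraries belong to set B, and the part of the sets in these results was not tested.

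**Figure D2:**
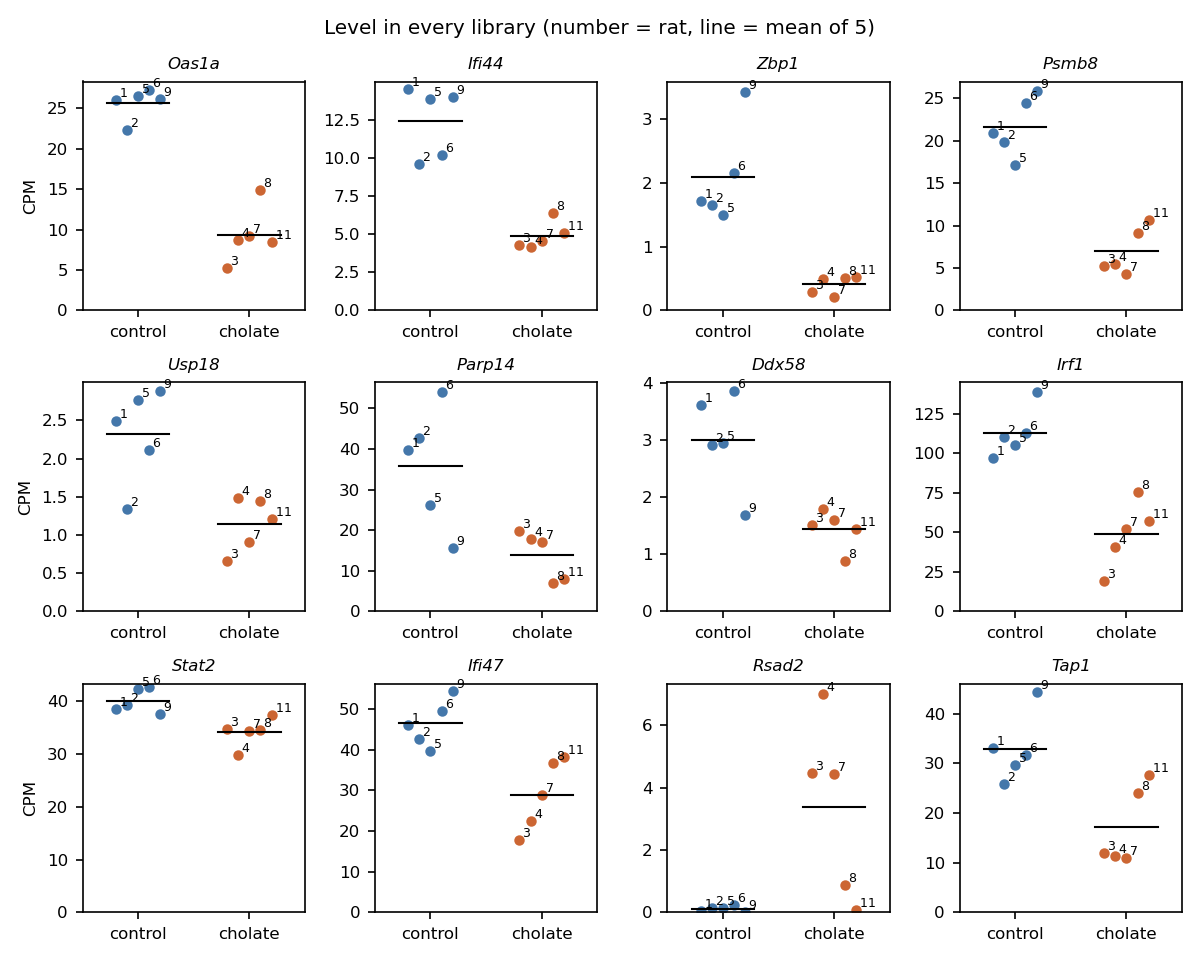
CPM (y axis, from 0) of 12 genes in each library, by diet (x axis). Points are libraries numbered by rat, and lines are means of 5 rats. The diets are apart in Oas1a, Ifi44, Zbp1, Psmb8, Irf1, Stat2 and Ifi47, and Rsad2 is high in cholate rats 3, 4 and 7.

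Over all genes tested 2.12% fell and 7.28% were lower at an adjusted p under 0.05. Among 11 tested antiviral effectors 2 fell and 4 were below 0.05, with a median change of -0.83. That median is the value of Ifi27, whose sign turned in other fits, and the median difference of log2(CPM + 0.5) was -0.39 within set A and -0.95 within set B. Oas1a makes the 2′-5′ oligoadenylates that activate RNase L, and it was at 26.1, 22.3, 26.6, 27.2 and 26.1 CPM in controls and 5.21, 8.71, 9.26, 15.0 and 8.43 CPM on cholate. Controls were closely grouped and cholate rat 8 was the highest treated library, still below all of them. The mean fell from 25.7 ± 1.94 to 9.31 ± 3.53 CPM (SD, n = 5 each), a change of -1.47 (SE 0.24, edgeR adjusted p = 0.00378). The adjusted p was over 0.01, and at most 0.0131, when control rat 1, 2 or 6 or cholate rat 4 or 7 was left out. Oas1a lies at chr12:41200680-41211393 on the plus strand of rn6 among close relatives, so that its counts and those of Oas1b may not be fully separate.

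Ifi44, an interferon-induced protein of the cytoplasm, was at 14.5, 9.62, 13.8, 10.2 and 14.0 CPM in controls and 4.28, 4.15, 4.58, 6.39 and 5.09 CPM on cholate. The 5 cholate libraries lay together below the controls. The mean fell from 12.4 ± 2.32 to 4.90 ± 0.907 CPM (SD, n = 5 each), a change of -1.35 (SE 0.20, edgeR adjusted p = 0.00226). It lies at chr2:256897765-256915591 on the minus strand of rn6. As for Zbp1, no single rat decided the call.

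Parp14, an ADP-ribosyltransferase, was at 39.8, 42.7, 26.3, 54.0 and 15.6 CPM in controls and 19.7, 17.8, 17.0, 7.01 and 7.97 CPM on cholate. Within set A and within set B the diets were apart, and over all 10 libraries control rat 9 lay among the cholate values. The change was -1.36 (SE 0.38, edgeR adjusted p = 0.0387). Usp18, the protease that removes ISG15 from proteins and damps the type I receptor, was at 2.49, 1.34, 2.76, 2.11 and 2.88 CPM in controls and 0.665, 1.48, 0.910, 1.44 and 1.21 CPM on cholate. Control rat 2 overlapped the cholate range, and the change was -1.02 (SE 0.31) at an edgeR adjusted p of 0.0494, at the edge of the threshold.

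The other tested effectors did not pass. Ifit2, a protein that binds viral RNA, had a log2 change of -1.47 (SE 0.47, edgeR adjusted p = 0.0652), Mx1, a GTPase against influenza viruses, of -0.76 (SE 0.43) and the ubiquitin-like Isg15 of -0.43 (SE 0.31). Their ranges over all libraries were 0.911 to 9.58 CPM, 1.93 to 12.8 CPM and 3.73 to 11.6 CPM. Oasl, at 17.5 to 49.3 CPM, had a log2 change of 0.01 (SE 0.29), and its sign turned with upper quartile scaling and with library size alone. Bst2, which tethers budding virions, and Ifit3 were above 0 at 0.19 (SE 0.42) and 1.04 (SE 0.61), at levels of no more than 2.94 CPM. Ifi27 had a log2 change of -0.83 (SE 1.01), which was above 0 with only the libraries of set A, with quality weights and with the set as a term. It ranged from 7.47 to 160.0 CPM in controls and from 5.85 to 104 CPM on cholate, highest in control rats 5 and 9 and cholate rat 8, all of set B.

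The filter on low counts left out 6 genes. Rsad2, also called viperin, an enzyme that makes a chain-terminating nucleotide, was at 0.0351, 0.153, 0.149, 0.246 and 0 CPM in controls and 4.47, 6.98, 4.44, 0.876 and 0.0759 CPM on cholate. Cholate rats 3, 4, 7 and 8 were above every control and cholate rat 11 was within the control range. The counts behind this were 18 in the 5 controls and 642 in the 5 cholate libraries. Tested without the filter, its change was 4.74 at an edgeR adjusted p of 0.0118, short of the threshold. Cmpk2, its neighbour in the genome and an interferon-induced nucleotide kinase, had a log2 change of -0.31 (SE 0.31).

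Of the other 5 untested genes, Mx2 had 19 counts in controls and 22 on cholate, Oas1b had 42 and 21, and Gbp4 had 13 and 29. Ifit1 and Tap2 were listed at 0 in every library. The treatment of reads that map to more than 1 place, given in none of the sources used here, bears on families with close copies such as the Ifit, Oas, Gbp and RT1 genes.

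Of 3 tested interferon-induced GTPases, which attack vacuoles of intracellular pathogens, 0 fell or rose in the edgeR test or in the other tools run. At an unadjusted p under 0.05 (14.4% of all genes lower, 14.5% higher) Ifi47 was lower and Gbp2 higher. Ifi47 was at 46.1, 42.7, 39.7, 49.5 and 54.4 CPM in controls and 17.7, 22.3, 28.8, 36.7 and 38.1 CPM on cholate, without overlap, and cholate rats 8 and 11 were the closest to the controls. Its change was -0.70 (SE 0.21) at an edgeR adjusted p of 0.0529. Gbp5 had a log2 change of -0.62 (SE 0.43) and Gbp2 of 1.02 (SE 0.45), both at 0.245 to 2.53 CPM and neither below an adjusted p of 0.05.

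The 3 chemokines that attract T cells through CXCR3 neither fell nor rose in the edgeR test or in the other tools run, and 0 of 3 had an unadjusted p under 0.05. Cxcl9, Cxcl10 and Cxcl11 had log2 changes of 0.40 (SE 0.43), -0.03 (SE 0.46) and 0.44 (SE 0.41), at 0.152 to 5.61 CPM. The edgeR adjusted p was between 0.522 and 0.979. Cxcl10 and Cxcl11 overlap the antisense gene Art3 but share 0 exon bases with it.

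The antigen processing genes lie side by side in the MHC on chromosome 20, where Psmb9 to Tap2 span 36.2 kb of rn6 and the starts of Psmb9 and Tap1 are 457 bases apart on opposite strands. Psmb8, a catalytic subunit of the immunoproteasome at chr20:3990809-3993772, was at 20.9, 19.8, 17.1, 24.4 and 25.9 CPM in controls and 5.28, 5.46, 4.34, 9.08 and 10.6 CPM on cholate. All cholate libraries were below all controls, and cholate rats 8 and 11 were higher than the other 3. The mean fell from 21.6 ± 3.54 to 6.96 ± 2.73 CPM (SD, n = 5 each), a change of -1.65 (SE 0.26, edgeR adjusted p = 0.00334). Its adjusted p was over 0.01, and at most 0.012, when control rat 1, 2 or 6 or cholate rat 4 was left out.

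Psmb9, the second such subunit of this cluster, was at 52.8, 47.3, 53.4, 56.1 and 80.6 CPM in controls and 22.5, 19.3, 21.0, 49.2 and 54.4 CPM on cholate. Tap1, which pumps peptides into the endoplasmic reticulum, was at 33.1, 25.8, 29.6, 31.7 and 44.4 CPM in controls and 11.9, 11.4, 10.9, 24.0 and 27.7 CPM on cholate. In both genes cholate rats 3, 4 and 7 lay far below all controls, while cholate rat 11 lay within the control range in both and cholate rat 8 in Psmb9. Over all 10 libraries the changes were -0.81 (SE 0.32, edgeR adjusted p = 0.119) and -0.94 (SE 0.30, edgeR adjusted p = 0.0585). The difference of mean log2(CPM + 0.5) between diets was -1.29 in set A and -0.34 in set B for Psmb9, -1.36 and -0.48 for Tap1, and -2.01 and -1.06 for Psmb8. Whether the sets differ in this was not tested.

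**Figure D3:**
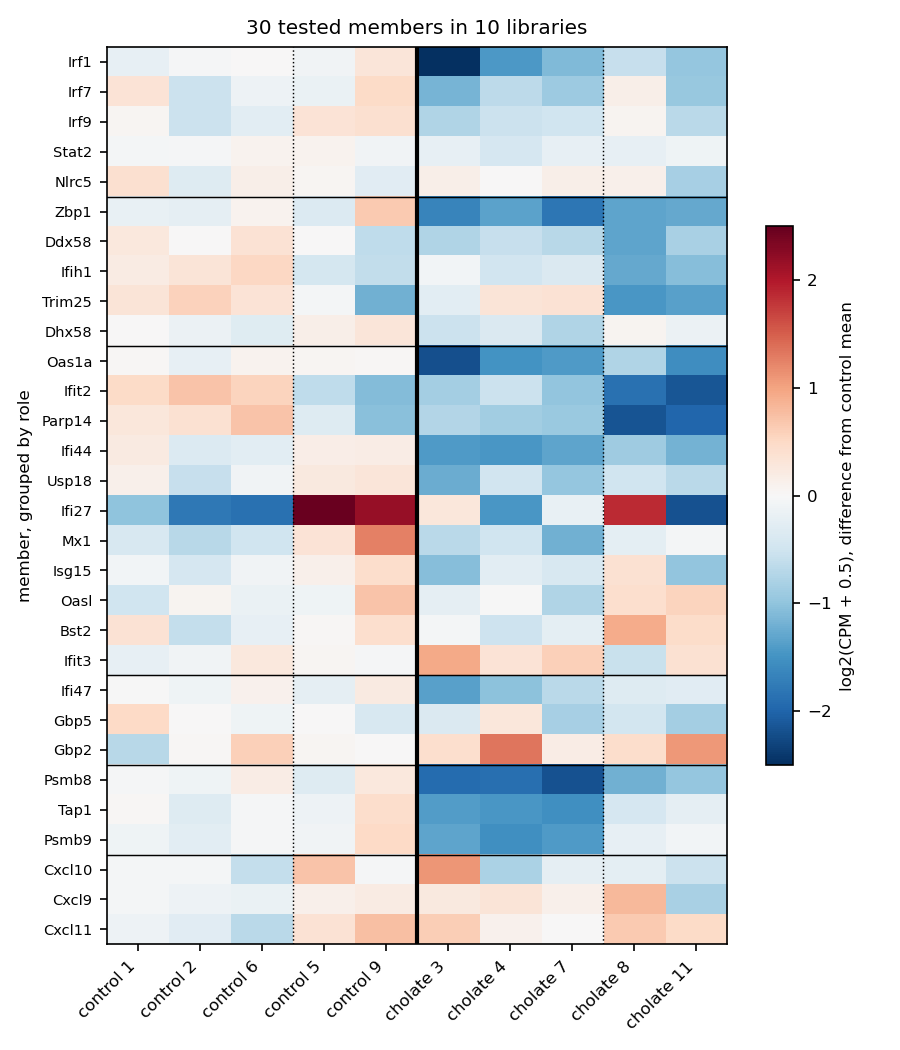
Level of the 30 tested genes (rows, grouped by role) in each library (columns), as log2(CPM + 0.5) minus the mean of the 5 controls. The thick line parts the diets and the dotted lines part set A (left) from set B (right). Psmb8, Psmb9 and Tap1 are darkest in cholate rats 3, 4 and 7, and Ifi27 is high in control rats 5 and 9 and cholate rat 8.

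The immunoproteasome subunits replace the constitutive subunits Psmb5, Psmb6 and Psmb7 in the same particle, so each was set against the subunit it replaces, per coding length, within each library. The ratio of Psmb8 to Psmb5 was 0.209, 0.198, 0.149, 0.263 and 0.186 in controls and 0.0393, 0.0381, 0.0327, 0.0404 and 0.0623 on cholate. The diets were far apart, with a difference of -2.25 in mean log2 ratio. The ratio of Psmb9 to Psmb6 was 9.84 to 16.6 in controls and 3.60 to 7.20 on cholate, a difference of -1.28 on the log2 scale. The ratio of Psmb10, the third inducible subunit, to Psmb7 was 1.46 to 1.90 in controls and 0.613 to 0.985 on cholate, a difference of -1.16 on the log2 scale. None of the 3 ratios overlapped between diets, and each had a two-sided exact permutation p of 0.00794 (also 0.00794 after Benjamini-Hochberg adjustment over the 3), the smallest that 5 against 5 allows. Ratios that do not overlap give this p in any case. Psmb9 and Psmb10 were added after their values were seen, so the p adds nothing to the separation itself.

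Of the single genes in these ratios outside the 36, Psmb7 alone passed an adjusted p of 0.05. Psmb7 was higher on cholate by 0.62 (SE 0.17, edgeR adjusted p = 0.0329) and Psmb5 by 0.56 (SE 0.17, edgeR adjusted p = 0.0566), which did not pass, while Psmb10 had a log2 change of -0.54 (SE 0.20, edgeR adjusted p = 0.102). In controls Psmb6 was at 7.68 CPM per kb of coding sequence against 131 for Psmb5 and 71.7 for Psmb7, so the ratio of Psmb9 to Psmb6 rests on a low denominator.

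**Figure D4:**
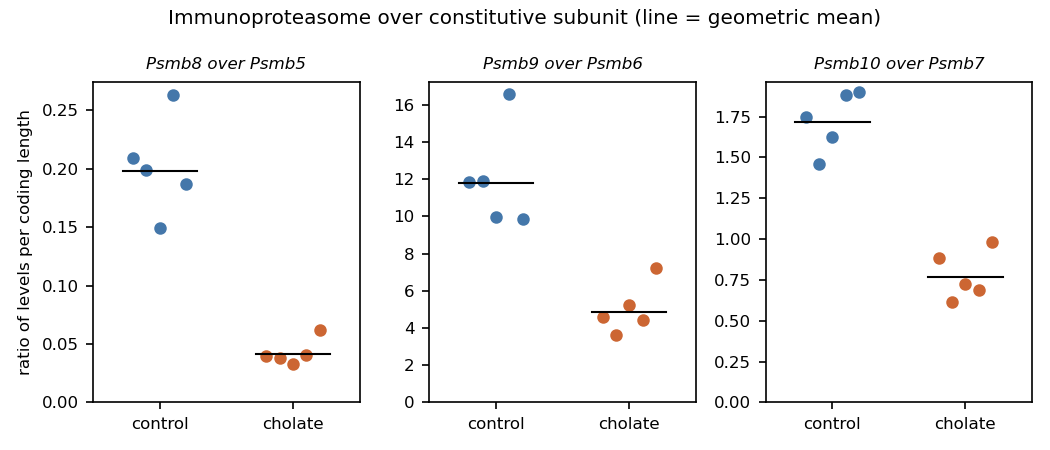
Ratio of each immunoproteasome subunit to the constitutive subunit it replaces (y axis, levels per coding length, from 0) in each library, by diet (x axis). Lines are geometric means of 5 rats. In each panel the 5 cholate libraries lie below the 5 controls.

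In the rest of the class I pathway, 28 of the 41 genes looked for were tested. Of them 2 fell, 0 rose, 12 were lower and 0 higher at an adjusted p under 0.05, and the median change was -0.74. Over all genes tested 2.12% fell and 1.1% rose, and 7.28% were lower and 6.48% higher at that adjusted p. B2m, the light chain of every class I molecule, was at 1532, 1761, 1337, 1833 and 1742 CPM in controls and 830.5, 652, 787, 1082 and 1040.2 CPM on cholate. The diets did not overlap, and the change of -0.90 (SE 0.16, edgeR adjusted p = 0.00519) was less than 2-fold. Tapbp, which bridges the peptide pump and class I molecules, likewise changed by -0.97 (SE 0.19, edgeR adjusted p = 0.00866). The genes that fell were RT1-S3, from 60.1 ± 12.3 to 24.8 ± 3.01 CPM (SD, n = 5 each; -1.28, SE 0.16), and RT1-M3-1, from 8.15 ± 0.813 to 3.14 ± 0.786 CPM (SD, n = 5 each; -1.38, SE 0.21), both class I heavy chains outside the classical RT1-A locus. RT1 genes are near copies of each other, and the split of reads between them is uncertain.

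Among 39 tested further interferon-induced genes 7 fell, 0 rose and 17 were lower at an adjusted p under 0.05, with a median change of -0.66. Over all genes tested 2.12% fell, 1.1% rose and 7.28% were lower at that adjusted p. The list was counted by rows of the deposited table, so Dtx3l, with more than 1 row, can enter more than once. Oasl2, a relative of Oas1a, fell from 9.14 ± 2.52 to 2.15 ± 0.820 CPM (SD, n = 5 each; -2.10, SE 0.29). The guanylate-binding protein Gbp3 fell by 1.85 on the log2 scale, the related GTPase Irgm by 1.04, the apolipoprotein L gene Apol3 by 1.97, the ubiquitin ligase Rnf213 by 1.63, the helicase Helz2 by 1.15 and the ADP-ribosyltransferase Parp10 by 1.12. Ifitm3, which blocks viral entry, stood highest at 1.66 (SE 0.59), without passing (edgeR adjusted p = 0.0863). These lists were chosen with earlier results of these data known, so their counts are a description.

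**Figure D5:**
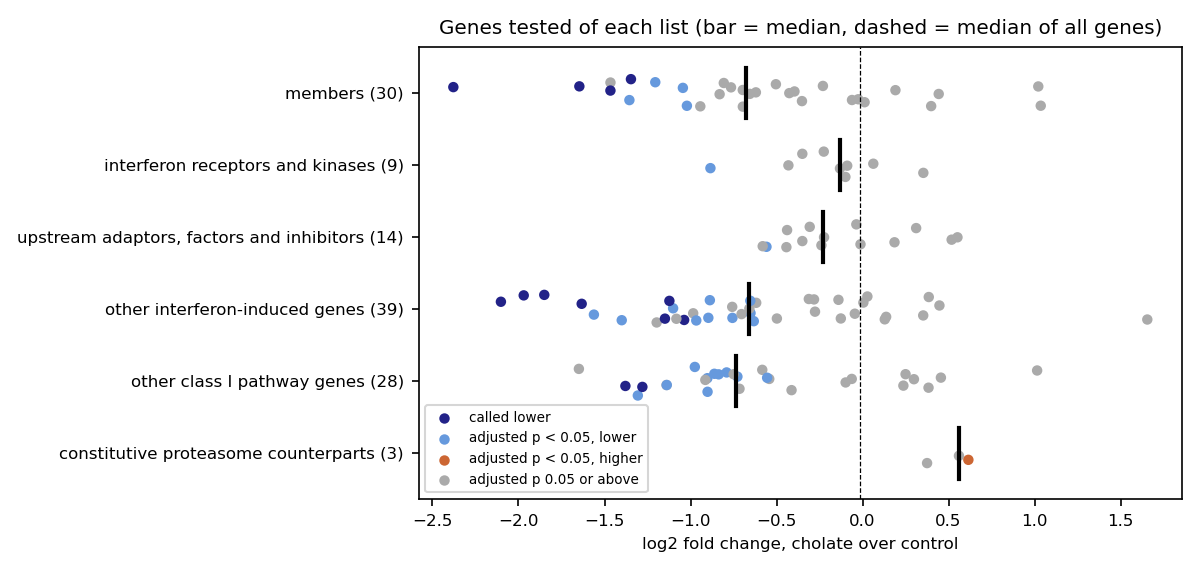
Log2 fold change of cholate over control (x axis) for each tested gene of the 36-gene list and of 5 further lists (y axis, number tested in brackets). Black bars are list medians and the dashed line is the median of all genes; receptors and upstream factors lie nearer to it (-0.13 and -0.23) than the interferon-induced (-0.66) and class I genes (-0.74).

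With only the 6 libraries of set A, 3 per diet, 31 of the 36 genes were tested, 9 fell and 1 rose, against 5.48% and 2.45% of all genes in that fit. Oas1a, Ifi44, Zbp1 and Psmb8 were among the 9, and Ifit2, Parp14, Ddx58, Psmb9 and Tap1 were the others. The gene that rose was Rsad2, with a change of 5.13 and an edgeR adjusted p of 0.000226. With all 10 libraries and the set as a further term, 9 of 30 fell and 0 rose, against 4.82% and 1.87% of all genes. The difference of mean log2(CPM + 0.5) was -1.68 in set A and -1.19 in set B for Oas1a, -1.28 and -1.22 for Ifi44, -1.50 and -1.46 for Zbp1, and -1.61 and -0.88 for Irf1, so each of these was lower on cholate within both sets. For Zbp1 the added 0.5 is close to the cholate levels, 0.214 to 0.531 CPM, and draws the difference toward 0. The fitted change of Zbp1 with set A alone was -2.39. The fits by set were chosen after the data had been seen.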

How the data were processed

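The authors deposited raw counts of reads per gene in 10 poly(A) RNA libraries, 1 per rat, made from reads aligned to rn6, per the submitters' processing notes. The authors demultiplexed reads with bcl2fastq 1.8.4, aligned them to rn6 with BWA 0.7.12-r1039 and scaled with edgeR 3.16.2, per the submitters' processing notes. The aligner is not splice-aware. The program that counted reads, and whether it used strand, are given in none of the sources used here. The authors also deposited a normalized signal (CPM after their scaling), which was not tested. Both limits on a call follow the series' design text, a false discovery rate of 1% and a 2-fold change.

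Genes were filtered with filterByExpr, scaled by TMM and tested by diet with the quasi-likelihood F test of edgeR 4.0.16 in R 4.3.3 with robust estimation. Benjamini-Hochberg adjustment ran over all 12385 genes tested. SE was taken as the log2 change over the square root of F. The spread between rats, as the common biological coefficient of variation, came to 34.3%. The fit was tested on simulated data. Levels per length used the deposited effective length, which equals the coding length in rn6. Alternatives used limma 3.58.1 and DESeq2 1.42.0. The floor of 3 counts covers counting error only. Columns of other samples: none.

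The members and lists were chosen with earlier results of these data known. Values in every library are given for each member that fell, was below an adjusted p of 0.05 or did not overlap between diets, and the other tested members by change, most with a range of CPM. From each further list the text names the called genes, or else the gene with the smallest adjusted p, with B2m and the receptors always. A gene that this rule also takes is not reported here. Tap1, Psmb9, Psmb10, Rsad2, Cmpk2, Ifitm3, Tapbp and the cell markers were added after their values were seen. Dtx3l has more than 1 row in the table.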

Additional observations from a re-analysis of the deposited data

Results flagged for a closer look

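In 60 groups of 5 libraries, 1 gene in 1 diet each, 6 held a library far from the other 4, with a gap of over 0.71 of the whole range. Chance flags about 1 in 20 such groups. Control rat 2 had the lowest Oas1a, 22.3 CPM, with the other controls at 26.1 to 27.2 CPM. Cholate rat 8 had the highest Irf7, 22.7 CPM against 8.97 to 12.8 CPM in the other cholate libraries, and the highest Irf9, 24.8 CPM against 13.9 to 16.5 CPM. Cholate rat 11 had the lowest Nlrc5, 3.19 CPM against 6.14 to 6.83 CPM. Cholate rat 3 had the highest Cxcl10, 5.61 CPM against 1.13 to 1.93 CPM. Control rat 9 had the highest Psmb9 of its diet, 80.6 CPM against 47.3 to 56.1 CPM.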

How the results depend on the processing

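The 4 decreases kept their direction in every alternative that tested them. With a mean of at least 5 CPM, Zbp1 was not among the 18 members tested, and 3 fell. The number of genes that fell, 4 of 30, became 7 with the DESeq2 Wald test, 7 with the edgeR exact test, 10 with limma-voom and quality weights, 0 with glmTreat against a fold of 2 (4 at an unadjusted p under 0.05), and 9 both with set A alone and with the set as a term. Leaving out each rat gave 2 to 5, with 2 without control rat 1, 2 or 6 or cholate rat 4. The number below an adjusted p of 0.05, 8 in the edgeR test, became 16 with quality weights, 1 with glmTreat, 13 with set A and 16 with the set as a term, and 4 to 8 when each rat was left out (4 without cholate rat 4, and 5 without control rat 1 or 6 or cholate rat 7). No alternative called any of the 30 genes higher. The cause of these shifts was not tested. Over all genes, 398 calls became 788 with DESeq2, 754 with the exact test, 1157 with quality weights, 50 with glmTreat, 1003 with set A and 829 with the set as a term, and 168 to 450 when each rat was left out.

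Of the members, 5 turned sign in some setting, none of them past a threshold. Oasl (0.01) became -0.025 with upper quartile scaling, -0.0524 with library size alone, -0.0179 with a mean of at least 5 CPM, -0.0413 with limma-voom, -0.146 with quality weights, -0.0929 with set A and -0.0168 with the set as a term. Bst2 became -0.220 with quality weights and -0.227 with set A, and Ifi27 (-0.83, SE 1.01) became 0.452, 1.27 and, with the set as a term, 0.193. Nlrc5 became 0.0239 and Cxcl10 0.576 with set A. When each rat was left out, Oasl ranged from -0.157 to 0.206, Bst2 from -0.158 to 0.382, Nlrc5 from -0.142 to 0.0908 and Cxcl10 from -0.619 to 0.25. No paired analysis was possible because each rat ate a single diet and its number occurs once. Depth limits what can be said of Mx2, Oas1b, Gbp4, Ifne, Ifnk and Ifng. Ifit1, Tap2 and the other 8 interferons had a count of 0 in all 10 libraries, and why was not tested.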
